A study of Homo sapiens with 16 samples.

Results

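CD44, PROM1, ABCG2, BMI1, SOX2, SOX9, KLF4, MYC, POU5F1 and NANOG are 10 genes widely used as markers of cancer stem cells, and they are followed here by gene symbol through every group of the study. Rows were found for 8 of the 10, out of 18227 genes in the tables. PROM1 and NANOG had no row under their symbol or their Ensembl identifier in the tables used here, so no value is given for either. RNA sequencing was done on 16 libraries, 2 in each of 8 groups, from A549 and H2023. Both are cell lines grown from human lung tumours of the non-small cell type. Each line was compared as wild type and as a ZC3H12A knockout, after 3 days in normal culture or after 7 days in a stem-cell-enriching culture that yields floating spheres, called oncosphere culture below. The 8 groups were therefore A549 wild type, A549 knockout, H2023 wild type and H2023 knockout, each in normal and in oncosphere culture. The knockout was 1 clone per line by the sample titles, so a difference between a clone and its wild type cannot be told apart from a difference among clones of that line. Culture condition and days in culture changed together and cannot be told apart either. Nothing in the labels says that the 2 libraries of a group came from separate cultures, so the p-values below measure only the spread between these libraries, which may be technical.

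Cancer stem cells are tumour cells able to seed new tumours, and growth as floating spheres without serum is a usual way to enrich for them. The markers fall into classes. CD44 is a surface receptor for hyaluronan and PROM1 (CD133) a surface glycoprotein of membrane protrusions, ABCG2 pumps drugs out of cells, and BMI1 is a subunit of the gene-silencing Polycomb repressive complex 1. SOX2, KLF4, MYC and POU5F1 (OCT4) are the transcription factors used to reprogram somatic cells, NANOG is their partner in pluripotent cells, and SOX9 is a transcription factor of lung and other epithelial progenitors. ZC3H12A encodes Regnase-1, an endoribonuclease that degrades messenger RNAs carrying short stem-loops in the 3′ untranslated region, with a preference for a loop of pyrimidine, purine, pyrimidine.

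Because such stem-loops are the known substrate of Regnase-1, the 3′ untranslated region of 1 transcript per gene was searched for them in the GENCODE 29 annotation of GRCh38. A loop was 3 bases (8 possible triplets) and a stem was an unbroken run of Watson-Crick pairs. A minimum of 6 pairs was set first and left 0 of the 10 genes, and the longest stem of each gene was then taken. The 4 genes with rows and a stem of at least 4 pairs are shown with the loop in capitals, as RNA-sense DNA letters from 5′ to 3′.
SOX9, 5 pairs, chr17:72124798-72124810, + strand: tcctcTGTgagga
ABCG2, 4 pairs, chr4:88092118-88092128, - strand: ctgtTGCacag
BMI1, 4 pairs, the first of 2 stem-loops of that length, chr10:22330088-22330098, + strand: ttgcTACgcaa
SOX2, 4 pairs, chr3:181714190-181714200, + strand: gaaaTATtttc
The longest stem in CD44, KLF4 and MYC had 3 pairs, and none of 3 pairs was found in POU5F1. The SOX9 stem-loop started at base 411 of a region of 2033 bases. A stem of at least 5 pairs was present in 30.1% of the 772 genes whose 3′ untranslated region was within 10% of that length, and in 23.3% of all 13872 genes searched. Stems of at least 4 pairs were present in 67.6%, 67.5% and 51.6% of the genes with regions about as long as those of ABCG2, BMI1 and SOX2. These matches are a description of the letters and do not show that a site is bound or cleaved.

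Levels are in TPM, the transcript abundance scaled for transcript length and for the total of each library, so they can be compared between genes and between the 4 deposited tables. In every library 13824 to 14508 genes reached 1 TPM. TPM does not keep the number of reads. The authors' mean normalized counts are the only depth given, and they are stated below for SOX2 and POU5F1, the markers with the fewest. Mitochondrial genes took 10.3% to 18.7% of the TPM in normal culture and 19.5% to 25.6% in oncosphere culture, and this lowers the TPM of other genes in proportion. ZC3H12A itself went against its label in 3 of 4 comparisons. In A549 cells in normal culture it was at 30.7 and 34.9 TPM in wild type and at 16.9 and 19.9 TPM in knockout. In A549 cells in oncosphere culture it was at 48.5 and 49.2 TPM against 60.2 and 55.6 TPM. In H2023 it was at 26.8 and 29.9 TPM against 41.5 and 41.5 TPM in normal culture, and at 32.5 and 26.4 TPM against 94.6 and 69.2 TPM in oncosphere culture, with the knockout second each time. The labels do not say how the gene was edited, and a transcript level over the whole gene does not test for a small frameshift. The groups are therefore called labelled knockout below, and every direction against wild type rests on that label. Of the epithelial markers, KRT8, KRT18 and KRT7 stood at 630 TPM or more and CDH1 at 12.7 TPM or more in every library, while EPCAM and KRT19 went down to 0.37 and 0.29 TPM. Of the blood markers PTPRC, CD3E and HBB had no row, and CD14 reached 47.6 TPM in A549. In bulk RNA, fewer cells expressing a gene and less of its RNA per cell cannot be told apart.

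The 8 genes with rows covered a wide range. CD44 was the most abundant in every group, with group means from 206 to 702 TPM. MYC had group means of 41.7 to 159 TPM and BMI1 of 25.9 to 209 TPM. SOX9 (3.39 to 68.2 TPM), ABCG2 (6.44 to 23.8 TPM) and KLF4 (1.70 to 23.7 TPM) were intermediate. POU5F1 (1.91 to 10.2 TPM) and SOX2 (0.025 to 4.50 TPM) were the least abundant. No gene with a row was under 1 TPM in all 16 libraries. SOX2 was under 1 TPM in 7 libraries, at 0 in 1 of them, and had no group mean of 5 TPM or more.

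**Figure D1:**
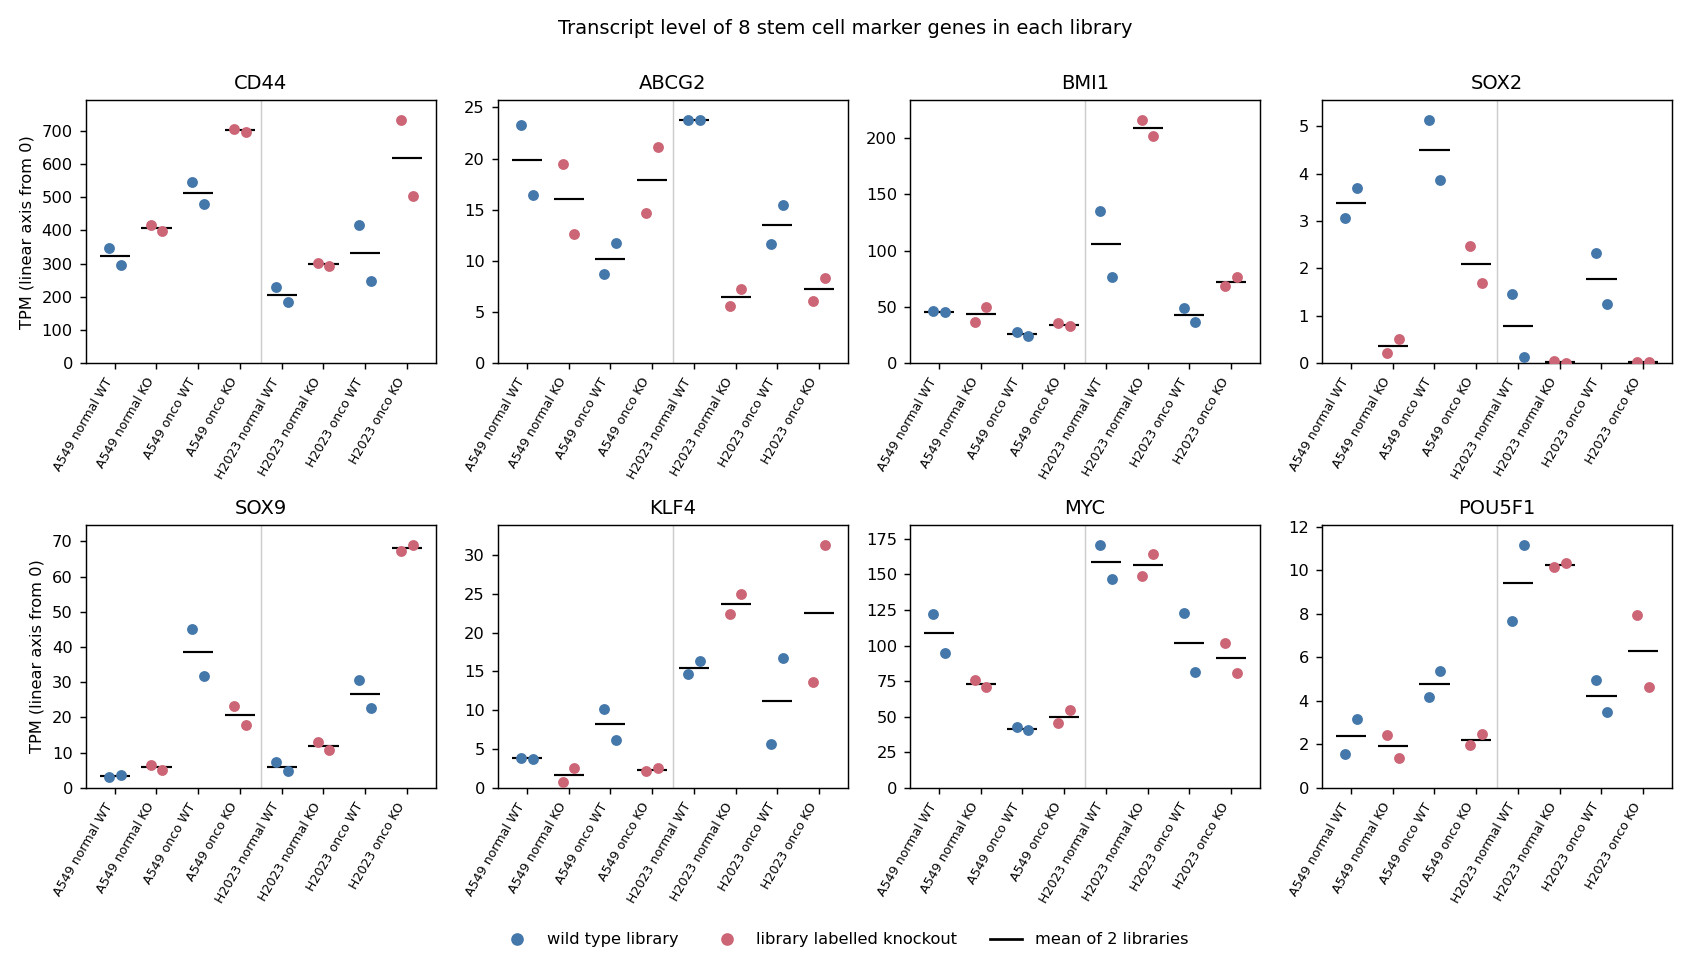
TPM (vertical axis, linear from 0, with its own scale in each panel) of the 8 genes in each of the 16 libraries, grouped by line, culture and genotype along the horizontal axis. Points are libraries, blue for wild type and red for labelled knockout, and the black line is the mean of 2 libraries; CD44 stands higher in labelled knockout than in wild type within each line and culture, and SOX2 lower.

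Differences were tested with limma on log2(TPM + 1), two-sided, with Benjamini-Hochberg adjustment over all 18227 genes and a threshold of 0.05. A fold on this scale understates the change of a gene near or below 1 TPM. In oncosphere against normal culture, 5 of the 8 genes passed in A549 wild type (40.6% of all genes did), 4 of 8 in A549 labelled knockout (20.8% of all genes), 3 of 8 in H2023 wild type (21.4%) and 4 of 8 in H2023 labelled knockout (26.9%). SOX9 was the only one of them to pass as higher in all 4 of these comparisons, which 1.48% of all genes did. None of the 8 passed as lower in all 4 (5.38% of all genes did). With 8 genes, a few calls more or fewer move these shares widely, and nothing particular to the markers is read from the counts.

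Between labelled knockout and wild type, limma called 1 of the 8 genes in A549 normal culture (SOX2, lower; 10.8% of all genes were called) and 1 of 8 in A549 oncosphere culture (KLF4, lower; 13.2% of all genes). In H2023 limma called 0 of 18227 genes in either culture (0%), with 3314 genes at an unadjusted p under 0.05 in normal culture and 2828 in oncosphere culture. The authors' deposited tables hold a DESeq2 result for the same 4 comparisons. At an adjusted p under 0.05 the authors' deposited table called 4 of 8 in A549 normal culture (22.1% of all genes with an adjusted p). It called 5 of 8 in A549 oncosphere culture (20.7%), 5 of 8 in H2023 normal culture (10.8%) and 2 of 8 in H2023 oncosphere culture (5.07%), again in the authors' deposited tables. With 4 libraries a comparison, a limma result that misses the threshold in H2023 therefore does not show that a gene stayed the same.

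With 2 libraries a group, values that do not overlap are common. Labelled knockout and wild type did not overlap in 5 of 8 markers in A549 normal culture (61.7% of all genes), 8 of 8 in A549 oncosphere culture (60.5%), 6 of 8 in H2023 normal culture (50.6%) and 5 of 8 in H2023 oncosphere culture (47.5%). Oncosphere and normal culture did not overlap in 8 of 8 in A549 wild type (71.3% of all genes), 5 of 8 in A549 labelled knockout (62.6%), 6 of 8 in H2023 wild type (60.7%) and 5 of 8 in H2023 labelled knockout (65.7%). The 2 wild-type lines did not overlap in 8 of 8 in normal culture (70.7% of all genes) and 5 of 8 in oncosphere culture (72%). Several of these counts are near the share among all genes.

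**Figure D2:**
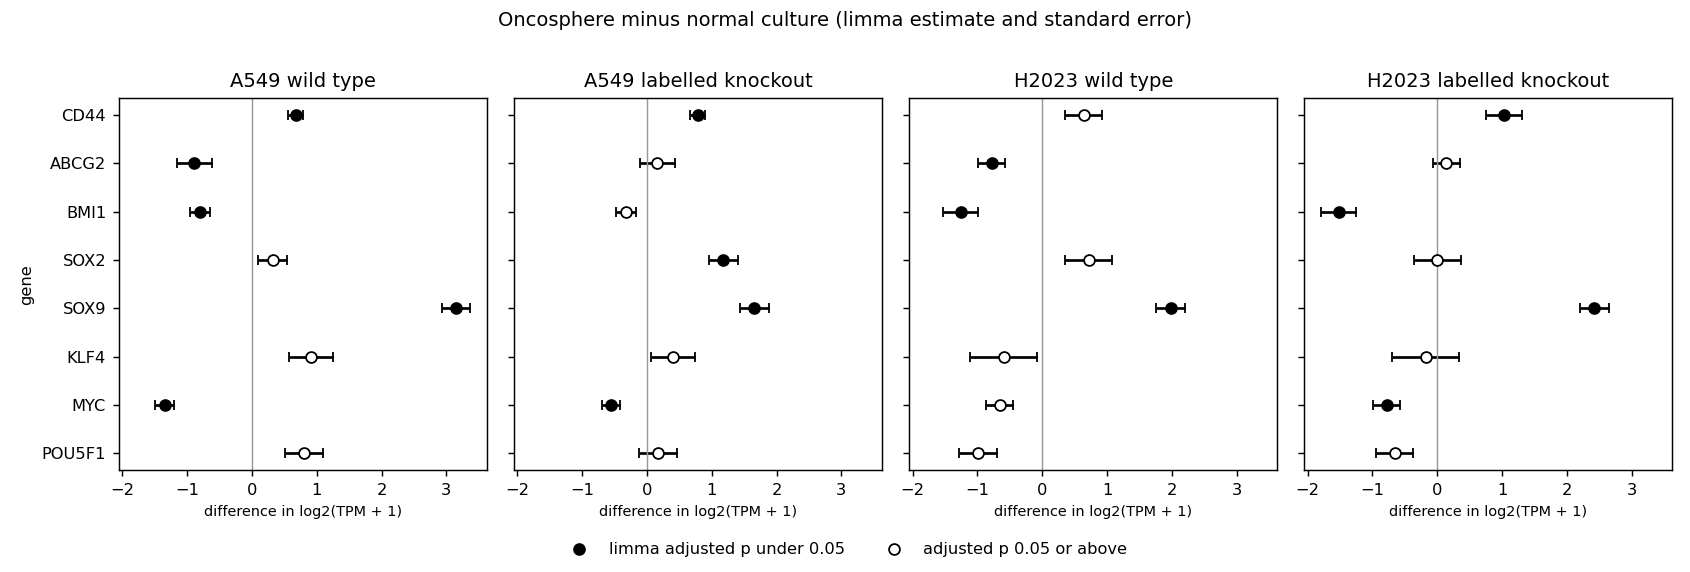
Oncosphere minus normal culture for the 8 genes, in log2(TPM + 1) (horizontal axis), with 1 panel for each line and genotype. Points are limma estimates from 2 libraries per group, bars their standard errors, and filled points passed an adjusted p of 0.05; SOX9 is filled and to the right of 0 in all 4 panels, and MYC lies to the left of 0 in all 4.

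CD44 (ENSG00000026508, chr11:35138870-35232402, + strand, GRCh38 as are all positions here), the hyaluronan receptor and the most abundant of the markers, was higher in oncosphere than in normal culture and higher in labelled knockout than in wild type, in both lines. Its A549 values in normal culture were 347 and 296 TPM in wild type and 416 and 398 TPM in labelled knockout. Its A549 values in oncosphere culture were 547 and 481 TPM in wild type and 707.5 and 696 TPM in labelled knockout. These 4 groups did not overlap, and each step in culture or genotype went up. In H2023 normal culture it was at 229 and 184 TPM in wild type and at 302 and 293 TPM in labelled knockout. In H2023 oncosphere culture it was at 415 and 247 TPM in wild type and at 734 and 504 TPM in labelled knockout. Here too labelled knockout stood above wild type without overlap in both cultures, but replicate 2 of each oncosphere group was well below replicate 1. CD44 was thus higher in labelled knockout without overlap in all 4 comparisons, which 1.88% of all genes were, and higher in oncosphere culture without overlap in all 4, which 6.44% of all genes were.

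The oncosphere difference in CD44 was 0.68 ± 0.12 (SE) on the log2 scale in A549 wild type, with a limma adjusted p of 0.00268. It was 0.79 ± 0.12 in A549 labelled knockout (limma adjusted p = 0.00293). In H2023 it was 0.64 ± 0.28 in wild type (limma adjusted p = 0.155) and 1.03 ± 0.28 in labelled knockout (limma adjusted p = 0.0395). CD44 therefore passed the limma threshold in 3 of the 4, and in H2023 wild type it was higher without overlap but did not pass. Relative to the median expressed gene, the H2023 differences were 0.88 in wild type and 1.2 in labelled knockout. In H2023 labelled knockout the estimate ran from 0.76 to 1.30 when 1 library was left out, and the call did not hold in every such run. Some runs that lost it left out a normal wild-type library, which is not in this difference. The estimate stayed at 1.03 in those, so they say little about CD44 itself. In the authors' deposited tables the labelled knockout effect was 0.34 ± 0.13 in A549 normal culture (adjusted p = 0.0381) and 0.42 ± 0.13 in A549 oncosphere culture (adjusted p = 0.00954). For H2023 normal culture the authors' deposited table gave 0.52 ± 0.12 (adjusted p = 0.000434). In H2023 oncosphere culture the authors' deposited table gave 0.89 ± 0.30 (adjusted p = 0.0567). The limma estimates were 0.34, 0.45, 0.54 and 0.92 in the same order, with adjusted p from 0.0623 to 0.329, none of them past the threshold. The difference in this effect between lines was 0.17 ± 0.18 in normal culture and 0.47 ± 0.33 in oncosphere culture, with adjusted p of 0.633 and 0.463 from a z test on the authors' deposited fold changes. H2023 wild type stood below A549 wild type in both cultures without overlap, by 0.64 ± 0.24 in normal culture (limma adjusted p = 0.0713) and 0.68 ± 0.24 in oncosphere culture (limma adjusted p = 0.0532).

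Of 18 genes for CD44 ligands, partners and processing enzymes, 16 had rows. In oncosphere against normal culture limma called 2 higher and 4 lower in A549 wild type, 4 higher and 2 lower in A549 labelled knockout, 1 higher and 6 lower in H2023 wild type, and 2 higher and 4 lower in H2023 labelled knockout. After centring on the median gene, the H2023 counts were 3 higher and 4 lower in wild type and 3 and 3 in labelled knockout. Before centring, limma called 40.6%, 20.8%, 21.4% and 26.9% of all genes in these 4 comparisons, in either direction. SPP1, the secreted CD44 ligand osteopontin, was called higher in all 4. It went from 242 and 244 TPM (normal) to 777 and 765 TPM (oncosphere) in A549 wild type and from 231 and 252 TPM (normal) to 1503 and 1850.03 TPM (oncosphere) in A549 labelled knockout. HMMR, another hyaluronan receptor and a mitotic spindle gene, fell in A549 wild type from 69.5 and 50.3 TPM (normal) to 15.5 and 14.5 TPM (oncosphere), by 1.91 ± 0.22 on the log2 scale. SRGN, the proteoglycan serglycin, differed in direction between the lines under the ZC3H12A label. In oncosphere culture it was at 63.8 and 82.6 TPM in A549 wild type and 224 and 249 TPM in A549 labelled knockout, against 375 and 474 TPM in H2023 wild type and 248 and 278 TPM in H2023 labelled knockout. The authors' deposited tables gave 1.66 in A549 and -0.78 in H2023 there, and the z test on them gave a difference, H2023 minus A549, of -2.43 ± 0.29 (adjusted p = 5.51e-15). In normal culture the authors' deposited tables gave 0.76 in A549 and -1.15 in H2023, a difference of -1.91 ± 0.21 (adjusted p = 1.02e-16, same z test).

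ABCG2 (ENSG00000118777, chr4:88090264-88231322, - strand), the efflux transporter behind the side-population assay for stem-like cells, was lower in H2023 labelled knockout than in H2023 wild type. In H2023 normal culture it was at 23.8 and 23.7 TPM in wild type and at 5.62 and 7.26 TPM in labelled knockout. In H2023 oncosphere culture it was at 11.7 and 15.4 TPM in wild type and at 6.08 and 8.35 TPM in labelled knockout. The groups did not overlap in either culture, and both labelled knockout groups were the lowest of the 8. The authors' deposited table gave a fall of 1.66 ± 0.17 on the log2 scale in normal culture (adjusted p = 3.3e-19) and a difference of -0.98 ± 0.33 in oncosphere culture (adjusted p = 0.0538). The limma estimates were -1.74 ± 0.16 (adjusted p = 0.111) and -0.83 ± 0.24 (adjusted p = 0.277).

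In A549 the ABCG2 pattern was another. In normal culture it was at 23.3 and 16.5 TPM in wild type and at 19.5 and 12.6 TPM in labelled knockout, which overlap. In oncosphere culture it was at 8.72 and 11.7 TPM in wild type and at 14.7 and 21.1 TPM in labelled knockout, with labelled knockout higher and no overlap. The authors' deposited table called the second difference, 0.62 ± 0.23 (adjusted p = 0.0406), and limma did not (0.75 ± 0.24, adjusted p = 0.102). The z test on the authors' deposited fold changes called a difference between lines in 2 of the 8 genes in normal culture (15.3% of all genes) and in 4 of 8 in oncosphere culture (12.9% of all genes), and ABCG2 was one of them in both. For ABCG2 that difference, H2023 minus A549, was -1.55 ± 0.28 in normal culture (adjusted p = 7.35e-07) and -1.59 ± 0.40 in oncosphere culture (adjusted p = 0.0013). The limma interaction gave -1.44 (adjusted p = 0.0321) and -1.57 (adjusted p = 0.0365). Both limma calls were lost in 7 of 8 runs that left out 1 library. In wild type, ABCG2 fell in oncosphere culture by 0.89 ± 0.27 in A549 (limma adjusted p = 0.0311) and by 0.78 ± 0.21 in H2023 (limma adjusted p = 0.045). The H2023 call did not hold in every run that left out 1 library, with estimates from -0.97 to -0.59. Some runs that lost it left out a normal labelled knockout library, which is not in this difference. The estimate stayed at -0.78 in those, so they say little about ABCG2 itself. Without replicate 1 of A549 normal wild type the A549 value became -0.65 (limma adjusted p = 0.18), and without replicate 1 of A549 oncosphere wild type it became -0.70 (limma adjusted p = 0.156). In labelled knockout the oncosphere groups overlapped the normal ones, with 0.16 ± 0.27 in A549 and 0.14 ± 0.21 in H2023.

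The H2023 oncosphere comparisons carry a shift that touches each result in them. The median gene among those expressed differed by -0.24 on the log2 scale between oncosphere and normal culture in H2023 wild type and by -0.17 in H2023 labelled knockout, against -0.06 and -0.02 in A549. Of the genes called in H2023 wild type 18.5% were higher, and 56.4% were after centring on the median. In H2023 labelled knockout the same shares were 28.6% and 51%. Relative to the median gene, ABCG2 in H2023 wild type differed by -0.54 (limma adjusted p = 0.134 after centring), so its call there depends on the scaling.

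Of 11 other drug efflux transporters 10 had rows. In A549 wild type limma called 5 higher and 2 lower in oncosphere culture, and in A549 labelled knockout 2 higher and 0 lower. In H2023 it called 0 higher and 2 lower in wild type and 1 higher and 1 lower in labelled knockout, before and after centring. The shares of all genes called, before centring and in the same order, were 40.6%, 20.8%, 21.4% and 26.9%. ABCC3, an exporter of conjugated organic anions, rose from 146 and 151 TPM (normal) to 406 and 343 TPM (oncosphere) in A549 wild type and from 157 and 163 TPM (normal) to 307 and 320 TPM (oncosphere) in A549 labelled knockout. ABCC1, the multidrug resistance protein 1 gene, was at 45.5 and 46.0 TPM in A549 oncosphere wild type and at 97.8 and 103 TPM in labelled knockout, a limma difference of 1.12 ± 0.10 (adjusted p = 0.00452). ABCB1, the P-glycoprotein gene, was at 1.94 and 3.44 TPM in A549 oncosphere wild type and listed at 0.01 and 0 TPM in labelled knockout.

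BMI1 (ENSG00000168283, chr10:22321211-22331484, + strand), the Polycomb subunit, was most abundant in H2023 normal culture. It was at 135 and 76.2 TPM in H2023 normal wild type and at 216 and 202 TPM in labelled knockout. In H2023 oncosphere culture it was at 48.5 and 36.1 TPM in wild type and at 68.1 and 76.2 TPM in labelled knockout. Labelled knockout stood above wild type without overlap in both H2023 cultures, and oncosphere below normal culture. In A549 normal culture it was at 46.1 and 45.1 TPM in wild type and at 36.8 and 49.95 TPM in labelled knockout, which overlap. In A549 cells in oncosphere culture it was at 27.8 and 24.1 TPM in wild type and at 35.8 and 32.5 TPM in labelled knockout, with no overlap.

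No labelled knockout difference of BMI1 passed a threshold. The limma estimates in H2023 were 1.03 ± 0.30 in normal culture (adjusted p = 0.225) and 0.77 ± 0.18 in oncosphere culture (adjusted p = 0.242), and the authors' deposited tables gave 0.95 ± 0.38 (adjusted p = 0.0957) and 0.54 ± 0.21 (adjusted p = 0.129). In A549 normal culture the sign differed between the 2 sources, -0.09 by limma and 0.15 in the authors' deposited table. BMI1 was lower in oncosphere culture past the limma threshold in 3 comparisons. The limma differences were -0.79 ± 0.15 in A549 wild type (adjusted p = 0.00457), -1.26 ± 0.27 in H2023 wild type (adjusted p = 0.0225) and -1.52 ± 0.27 in H2023 labelled knockout (adjusted p = 0.00938). Relative to the median gene the H2023 differences were -1.02 and -1.35, and the one in wild type no longer passed (limma adjusted p = 0.0514 after centring). With 1 library left out the call was lost in 2 of 8 runs in H2023 wild type (limma adjusted p up to 0.0999) and in 3 of 8 in H2023 labelled knockout (up to 0.064). In A549 labelled knockout the difference was -0.32 ± 0.15 (limma adjusted p = 0.184). In normal culture H2023 wild type stood above A549 wild type by 1.14 ± 0.26 (limma adjusted p = 0.0124), one of 4 of the 8 genes called in that comparison (35.4% of all genes). Leaving out either A549 normal wild type library raised that adjusted p to 0.0612 or 0.064.

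BMI1 shares its exons with COMMD3-BMI1, a read-through transcript that starts at the upstream gene COMMD3 on the same strand, so reads in common can be divided between them in more than 1 way. COMMD3-BMI1 was at 2.71 to 19.6 TPM and made up 6.0% to 21.1% of the sum of the 2. COMMD3, a subunit of an endosomal sorting complex, showed the same H2023 order as BMI1. It was at 114 and 96.6 TPM in H2023 normal wild type and at 179 and 212 TPM in labelled knockout. In H2023 oncosphere culture it was at 60.8 and 56.3 TPM in wild type and at 80.6 and 91.0 TPM in labelled knockout. Both genes were therefore highest in H2023 normal labelled knockout, and the part of the shared reads in this was not tested.

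**Figure D3:**
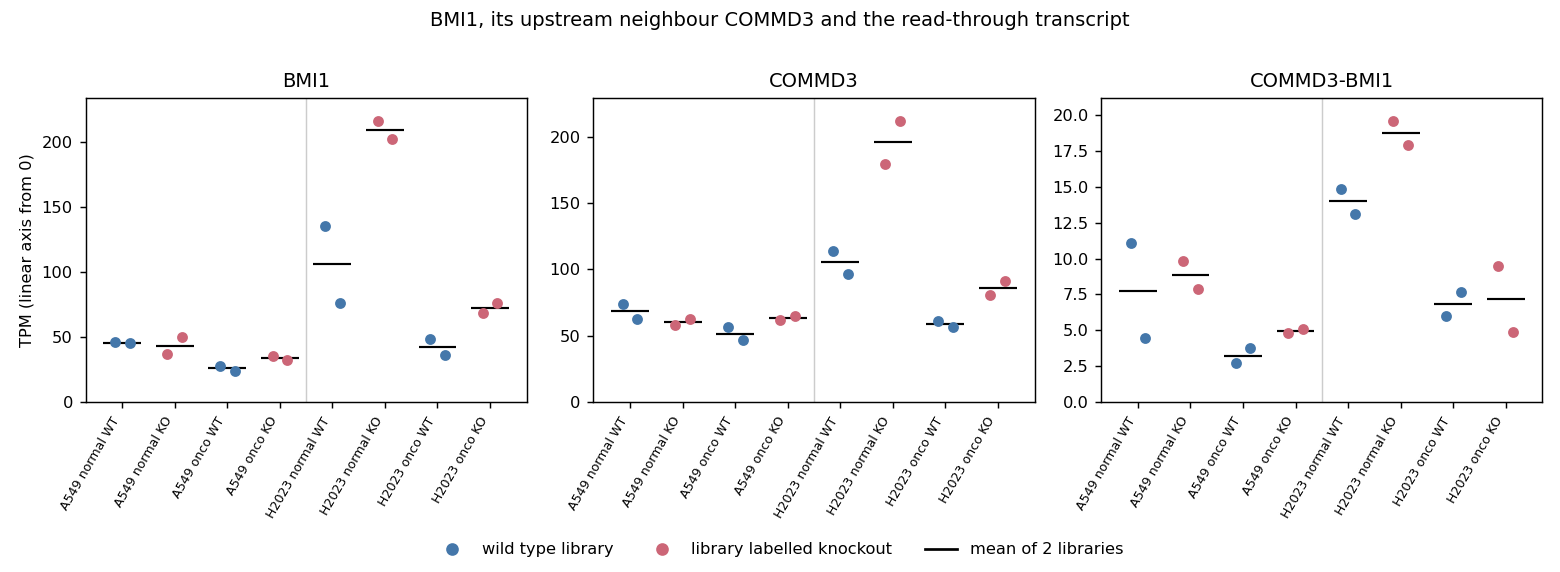
TPM (vertical axis, linear from 0, own scale per panel) of BMI1, of its upstream neighbour COMMD3 and of the read-through transcript COMMD3-BMI1 in each of the 16 libraries, by group. Points are libraries, blue for wild type and red for labelled knockout, with the mean of 2 libraries as a black line; all 3 are highest in H2023 normal labelled knockout, where BMI1 stands at 216 and 202 TPM.

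All 20 other Polycomb subunits had rows. In oncosphere culture limma called 2 higher and 8 lower in A549 wild type, 0 and 4 in A549 labelled knockout, 0 and 4 in H2023 wild type, and 0 and 6 in H2023 labelled knockout. Over all genes 40.6%, 20.8%, 21.4% and 26.9% were called in these comparisons, in either direction, and in H2023 most calls over all genes were lower before centring. After centring, the H2023 wild type count was 0 higher and 1 lower. EZH2, the histone H3 lysine 27 methyltransferase of the second Polycomb complex and a gene tied to proliferation, fell in all 4. It went from 32.4 and 30.2 TPM (normal) to 8.77 and 7.39 TPM (oncosphere) in A549 wild type and from 28.9 and 31.1 TPM (normal) to 11.7 and 12.3 TPM (oncosphere) in H2023 labelled knockout. For labelled knockout against wild type the authors' deposited tables called 3 higher and 2 lower, 1 and 1, 1 and 0, and 0 and 1 of the 20 in A549 normal, A549 oncosphere, H2023 normal and H2023 oncosphere culture. Of all genes with an adjusted p they called 22.1%, 20.7%, 10.8% and 5.07%.

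SOX2 (ENSG00000181449, chr3:181711924-181714436, + strand), a pluripotency and airway progenitor factor, was the least abundant marker and was lower in labelled knockout in every comparison. In A549 cells in normal culture it was at 3.07 and 3.70 TPM in wild type and at 0.22 and 0.50 TPM in labelled knockout. Its A549 values in oncosphere culture were 5.14 and 3.86 TPM in wild type and 2.47 and 1.70 TPM in labelled knockout. In H2023 it was at 1.46 and 0.12 TPM in normal wild type and at 2.33 and 1.24 TPM in oncosphere wild type. All 4 H2023 labelled knockout libraries were near 0, at 0.05 and 0 TPM in normal culture and at 0.03 and 0.02 TPM in oncosphere culture. Wild type and labelled knockout did not overlap in any of the 4 comparisons, and 1.81% of all genes were lower without overlap in all 4.

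In A549 normal culture SOX2 fell by 1.69 ± 0.19 on the log2(TPM + 1) scale (limma adjusted p = 0.0133), a ratio of mean TPM of 0.106. With 1 library left out the estimate was between -1.84 and -1.54 and the limma adjusted p 0.132 to 0.142, in runs that called 0 of 18227 genes and so say nothing about SOX2 itself. The limma differences in A549 oncosphere, H2023 normal and H2023 oncosphere culture were -0.84 ± 0.24, -0.70 ± 0.40 and -1.41 ± 0.22, none past the threshold. The authors' deposited tables called SOX2 in all 4, with log2 folds of -3.10 ± 0.50 (adjusted p = 1.57e-08), -1.12 ± 0.36 (adjusted p = 0.0127), -3.98 ± 1.27 (adjusted p = 0.0214) and -5.26 ± 0.94 (adjusted p = 3.22e-06). These rest on few reads. The authors' mean normalized count for SOX2 was 67.2 and 118 in the deposited A549 tables and 15.9 and 37.6 in the deposited H2023 tables. No fold in TPM is given for H2023 normal culture, where 1 labelled knockout library is listed at 0 and the 2 wild-type libraries, at 1.46 and 0.12 TPM, differ more than 10-fold.

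The SOX2 difference between wild type and labelled knockout was smaller in A549 oncosphere than in A549 normal culture. A z test on the authors' deposited fold changes called 2 of the 8 genes between cultures in A549 (8.31% of all genes) and 0 of 8 between cultures in H2023 (0.39% of all genes; 71 genes called). For SOX2 in A549 the difference, oncosphere minus normal, was 1.98 ± 0.62 (adjusted p = 0.0222 by that test), and the limma interaction was 0.86 (adjusted p = 0.137). Within A549 labelled knockout SOX2 rose in oncosphere culture by 1.18 ± 0.22 (limma adjusted p = 0.00814). Without replicate 1 of either group this limma adjusted p was 0.0623 or 0.059. Between lines in oncosphere culture the z test on the authors' deposited fold changes gave -4.13 ± 1.01 (adjusted p = 0.000836), and the limma interaction gave -0.58 (adjusted p = 0.34), so the 2 scales differ in size for a gene near 0. In normal culture the same test gave -0.88 and the limma interaction 1.00, which are opposite in sign, and neither passed. H2023 wild type was below A549 wild type in normal culture by 1.40 ± 0.38 (limma adjusted p = 0.024). Without replicate 2 of H2023 normal wild type, the library at 0.12 TPM, that difference was -0.83 (limma adjusted p = 0.111). Without replicate 1 or 2 of A549 normal wild type it was -1.50 (limma adjusted p = 0.0792) or -1.29 (limma adjusted p = 0.112).

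SOX9 (ENSG00000125398, chr17:72121020-72126420, + strand) had the largest culture difference of the 8 genes on the log2(TPM + 1) scale in each line and genotype. In A549 wild type it went from 3.09 and 3.69 TPM (normal) to 45.1 and 31.9 TPM (oncosphere). In A549 labelled knockout it went from 6.53 and 5.16 TPM (normal) to 23.4 and 18.0 TPM (oncosphere). In H2023 wild type it went from 7.42 and 4.69 TPM (normal) to 30.5 and 22.7 TPM (oncosphere), and in H2023 labelled knockout from 12.97 and 10.9 TPM (normal) to 67.4 and 69.1 TPM (oncosphere). No oncosphere group overlapped a normal one. SOX9 rose by 3.15 ± 0.22 (limma adjusted p = 6.23e-05), 1.66 ± 0.22 (limma adjusted p = 0.00177), 1.98 ± 0.23 (limma adjusted p = 0.00395) and 2.43 ± 0.23 (limma adjusted p = 0.00122) in that order, and no left-out library ended any of the 4 calls. Ratios of mean TPM were 11.4, 3.54, 4.395 and 5.72. As a ratio, SOX2 in A549 labelled knockout was larger than SOX9 there, at 5.79, from a mean of 0.36 TPM.

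The labelled knockout effect on SOX9 had opposite signs in the 2 A549 cultures. In the authors' deposited tables SOX9 rose by 0.83 ± 0.25 in A549 normal culture (adjusted p = 0.00699) and fell by 0.92 ± 0.22 in A549 oncosphere culture (adjusted p = 0.000399). In H2023 it rose in both, by 0.97 ± 0.23 in normal culture (adjusted p = 0.000888) and by 1.27 ± 0.21 in oncosphere culture (adjusted p = 2.88e-07), again in the authors' deposited tables. The limma estimates had the same signs, 0.64, -0.86, 0.90 and 1.34, with adjusted p from 0.0607 to 0.223. The difference between cultures in A549 was -1.76 ± 0.34 (adjusted p = 1.74e-05, z test on the authors' deposited fold changes), with a limma interaction of -1.50 (adjusted p = 0.033) that was lost in 7 of 8 runs leaving out 1 library. The difference between lines in oncosphere culture was 2.20 ± 0.31 (adjusted p = 1.09e-10, same z test), with a limma interaction of 2.20 (adjusted p = 0.00666). The antisense transcript SOX9-AS1 overlaps SOX9, and strand use in the counting is not given in the sources used here. SOX9-AS1 reached 2.72 TPM at most, against 69.1 TPM for SOX9.

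Of 13 other SOX genes 10 had rows. In oncosphere culture limma called 4 higher and 0 lower in A549 wild type, 2 and 1 in A549 labelled knockout, 0 and 1 in H2023 wild type and 1 and 1 in H2023 labelled knockout. After centring, the H2023 counts were 0 and 0 in wild type and 1 and 0 in labelled knockout. Of all genes, 40.6%, 20.8%, 21.4% and 26.9% were called in these comparisons before centring. SOX4, a progenitor and invasion-linked factor, was called higher in both labelled knockout comparisons, by 0.99 ± 0.15 in A549 (limma adjusted p = 0.00319) and 0.82 ± 0.16 in H2023 (limma adjusted p = 0.0132). Between labelled knockout and wild type, SOX21 was lower in A549 oncosphere culture by limma (-1.56 ± 0.28, adjusted p = 0.0257) and in H2023 normal culture in the authors' deposited table (-1.13 ± 0.38, adjusted p = 0.0311). SOX6 was lower in H2023 oncosphere culture in the authors' deposited table (-4.40 ± 0.73, adjusted p = 2.85e-07).

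**Figure D4:**
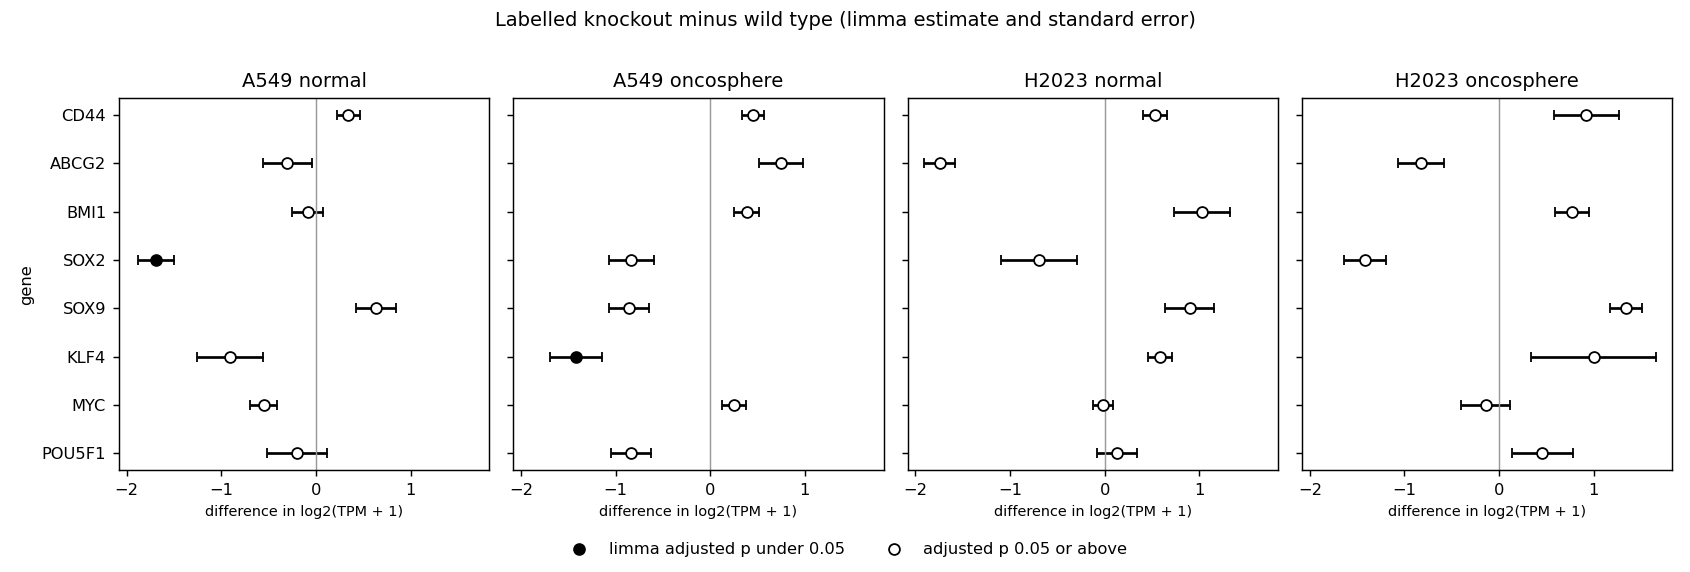
Labelled knockout minus wild type for the 8 genes, in log2(TPM + 1) (horizontal axis), with 1 panel for each line and culture. Points are limma estimates from 2 libraries per group, bars their standard errors, and filled points (SOX2 in A549 normal, KLF4 in A549 oncosphere) passed an adjusted p of 0.05; KLF4 lies left of 0 in both A549 panels and right of 0 in both H2023 panels.

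KLF4 (ENSG00000136826, chr9:107484852-107490482, - strand), a zinc-finger reprogramming factor and epithelial differentiation factor, had a labelled knockout difference of opposite sign in the lines. Its A549 values in normal culture were 3.82 and 3.75 TPM in wild type and 0.82 and 2.58 TPM in labelled knockout. In A549 oncosphere culture it was at 10.2 and 6.18 TPM in wild type and at 2.14 and 2.59 TPM in labelled knockout. Labelled knockout was lower without overlap in both A549 cultures. In H2023 normal culture it was at 14.6 and 16.3 TPM in wild type and at 22.3 and 24.99 TPM in labelled knockout, higher and without overlap. In H2023 oncosphere culture it was at 5.70 and 16.7 TPM in wild type and at 13.6 and 31.3 TPM in labelled knockout. Those groups overlap, replicate 2 was more than 2 times replicate 1 in both, and labelled knockout was above the wild-type library of the same number in both.

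KLF4 fell in A549 oncosphere culture by 1.42 ± 0.27 (limma adjusted p = 0.0309), with a limma adjusted p from 0.0763 to 0.188 when 1 library was left out. Those runs called 0 to 38 of 18227 genes against 2413 with all libraries, so they say little about KLF4 itself. The authors' deposited table gave -2.13 ± 0.37 there (adjusted p = 1.34e-07). It rose in H2023 normal culture by 0.66 ± 0.19 in the authors' deposited table (adjusted p = 0.00682), where limma gave 0.58 ± 0.12 (adjusted p = 0.171). In A549 normal culture the authors' deposited table gave -1.11 ± 0.46 (adjusted p = 0.0676). The difference between lines, H2023 minus A549, was 1.77 ± 0.50 in normal culture (adjusted p = 0.00451) and 3.06 ± 1.00 in oncosphere culture (adjusted p = 0.0209) by the z test on the authors' deposited fold changes. The limma interaction gave 1.49 (adjusted p = 0.0544) and 2.42 (adjusted p = 0.0851). In wild type KLF4 was higher in H2023 than in A549 in normal culture by 1.78 ± 0.42 (limma adjusted p = 0.0147), a call lost without any 1 of the 4 normal wild-type libraries (limma adjusted p 0.0556 to 0.0704). In oncosphere culture the wild-type lines overlapped, with a difference of 0.28 ± 0.42 (limma adjusted p = 0.627). No culture difference of KLF4 passed, from 0.91 ± 0.34 in A549 wild type (limma adjusted p = 0.0646) to -0.59 ± 0.52 in H2023 wild type (limma adjusted p = 0.456).

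Of 12 other KLF genes 11 had rows. KLF5, an epithelial and intestinal progenitor factor, was also lower in labelled knockout in both A549 cultures, and limma called both. It was at 92.4 and 95.3 TPM in A549 oncosphere wild type and at 37.3 and 38.0 TPM in labelled knockout (-1.30 ± 0.10, limma adjusted p = 0.00358). In A549 normal culture it was at 38.2 and 49.8 TPM and at 20.9 and 24.7 TPM (-0.91 ± 0.17, limma adjusted p = 0.0338). In H2023 normal culture KLF5 was also lower in labelled knockout in the authors' deposited table (-0.51 ± 0.14, adjusted p = 0.0041), where KLF4 was higher. Over the list, limma called 3 higher and 1 lower for labelled knockout in A549 normal culture (10.8% of all genes were called). In A549 oncosphere culture it called 1 higher and 1 lower (13.2% of all genes). In oncosphere against normal culture it called 3 and 3 in A549 wild type, 3 and 4 in A549 labelled knockout, 1 and 2 in H2023 wild type, and 2 and 2 in H2023 labelled knockout. After centring, the H2023 counts were 1 and 0 in wild type and 3 and 1 in labelled knockout. The shares of all genes called for culture, before centring, were 40.6%, 20.8%, 21.4% and 26.9%.

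POU5F1 (ENSG00000204531, chr6:31164337-31180731, - strand), which encodes the pluripotency factor OCT4, was low in A549 and somewhat higher in H2023. In A549 cells in normal culture it was at 1.58 and 3.18 TPM in wild type and at 2.44 and 1.38 TPM in labelled knockout, which overlap. In A549 cells in oncosphere culture it was at 4.16 and 5.36 TPM in wild type and at 1.98 and 2.46 TPM in labelled knockout, with labelled knockout lower and no overlap. In H2023 normal culture it was at 7.66 and 11.2 TPM in wild type and at 10.2 and 10.3 TPM in labelled knockout, and in oncosphere culture at 4.98 and 3.5 TPM and at 7.97 and 4.65 TPM. The genotypes overlapped in both H2023 cultures. No genotype or culture difference of POU5F1 passed limma or the authors' deposited tables. The closest were 2 limma oncosphere differences of opposite sign, 0.80 ± 0.29 in A549 wild type (adjusted p = 0.0569) and -0.99 ± 0.29 in H2023 wild type (adjusted p = 0.0573), both without overlap. In H2023 labelled knockout oncosphere culture was also lower without overlap (-0.66 ± 0.29, limma adjusted p = 0.145). H2023 wild type was above A549 wild type in normal culture by 1.65 ± 0.30 (limma adjusted p = 0.00535). In oncosphere culture that difference was -0.14 ± 0.30 (limma adjusted p = 0.735).

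The POU5F1 values rest on few reads, with an authors' mean normalized count of 36.5 and 41.1 in the deposited A549 tables and 132 and 95.4 in the deposited H2023 tables. They are also uncertain in what they count. The gene has near-identical pseudogene copies, and its annotated span overlaps PSORS1C3 and, on the other strand, TCF19. TCF19, a cell cycle gene, was at 12.7 to 23.5 TPM in normal culture, above POU5F1 in each of those libraries. In A549 oncosphere culture TCF19 was at 1.92 to 4 TPM, where POU5F1 was at 1.98 to 5.36 TPM. Of 16 other pluripotency genes only 6 had rows, 5 of them reaching 1 TPM in some library. In oncosphere culture limma called 0 of these 6 higher in any comparison. It called 2 lower in A549 wild type, A549 labelled knockout and H2023 wild type, and 3 in H2023 labelled knockout (2 after centring). Before centring, 40.6%, 20.8%, 21.4% and 26.9% of all genes were called. For labelled knockout it called 0 higher and 1 lower in each A549 culture (10.8% and 13.2% of all genes). In H2023 limma called 0 of 18227 genes by genotype, so the list adds nothing there. DNMT3B, a DNA methyltransferase, and TERT, the telomerase catalytic subunit, were called lower in oncosphere culture in all 4 comparisons, as were 5.38% of all genes. In A549 wild type DNMT3B went from 8.26 and 7.49 TPM (normal) to 1.00 and 1.31 TPM (oncosphere) and TERT from 6.08 and 4.92 TPM (normal) to 0.40 and 0.82 TPM (oncosphere).

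MYC (ENSG00000136997, chr8:127735434-127741434, + strand), the transcription factor that drives ribosome production and proliferation, was lower in oncosphere than in normal culture. In A549 wild type it went from 122 and 95.05 TPM (normal) to 42.6 and 40.8 TPM (oncosphere), and in A549 labelled knockout from 75.8 and 70.8 TPM (normal) to 45.3 and 54.4 TPM (oncosphere). In H2023 wild type it went from 171 and 146 TPM (normal) to 123 and 81.2 TPM (oncosphere), and in H2023 labelled knockout from 148.5 and 164 TPM (normal) to 102 and 80.4 TPM (oncosphere). The cultures did not overlap in any of the 4, and 17% of all genes were lower without overlap in all 4. MYC fell by 1.35 ± 0.14 in A549 wild type (limma adjusted p = 0.00027), by 0.55 ± 0.14 in A549 labelled knockout (limma adjusted p = 0.0279) and by 0.78 ± 0.21 in H2023 labelled knockout (limma adjusted p = 0.039). In H2023 wild type the difference was -0.66 ± 0.21 (limma adjusted p = 0.0746). Relative to the median gene the H2023 differences were -0.42 and -0.61, and after centring the one in labelled knockout no longer passed (limma adjusted p = 0.0841). With 1 library left out the estimates ran from -0.68 to -0.42 in A549 labelled knockout and from -0.95 to -0.62 in H2023 labelled knockout. Neither call held in every such run. In H2023 some runs that lost it left out a normal wild-type library, which is not in this difference. The estimate stayed at -0.78 in those, so they say little about MYC itself.

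By genotype MYC passed the threshold in 1 of the 4 comparisons, and only in the authors' deposited table. In A549 oncosphere culture labelled knockout was higher without overlap, by 0.25 ± 0.13 (limma adjusted p = 0.265), which did not pass. In the authors' deposited table MYC fell by 0.46 ± 0.16 in A549 normal culture (adjusted p = 0.0241), where limma gave -0.55 ± 0.14 (adjusted p = 0.0689). Genotypes overlapped in both H2023 cultures. In oncosphere culture H2023 wild type was above A549 wild type by 1.24 ± 0.21 (limma adjusted p = 0.00273), the only one of the 8 genes called there (42.3% of all genes were). In normal culture that difference was 0.55 ± 0.21 (limma adjusted p = 0.0729).

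The 24 MYC target genes listed for this comparison, mostly of ribosome assembly, nucleotide synthesis and growth, all had rows and reached 1 TPM. In oncosphere culture limma called 22 lower in A549 wild type, 10 lower and 1 higher in A549 labelled knockout, 18 lower in H2023 wild type and 22 lower in H2023 labelled knockout. In the same comparisons 40.6%, 20.8%, 21.4% and 26.9% of all genes were called, in either direction. The list medians were -0.98, -0.31, -0.65 and -0.79, against -0.06, -0.02, -0.24 and -0.17 for the median gene among those expressed. After centring, the H2023 counts were 8 lower in wild type and 20 lower in labelled knockout, with medians of -0.41 and -0.62. NOP56, a core protein of the particles that modify ribosomal RNA, fell in A549 wild type from 609 and 561 TPM (normal) to 168 and 175 TPM (oncosphere) and in A549 labelled knockout from 408 and 498 TPM (normal) to 221 and 266 TPM (oncosphere). For labelled knockout against wild type in A549 normal culture limma called 9 lower and 0 higher, with a median of -0.43 (10.8% of all genes were called). The authors' deposited table called 12 lower and 1 higher there (22.1% of all genes with an adjusted p). ODC1, the rate-limiting enzyme of polyamine synthesis, was at 115 and 109.6 TPM in wild type and 42.7 and 40.9 TPM in labelled knockout there. In A549 oncosphere culture limma called 3 higher and 0 lower, with a median of 0.25 (13.2% of all genes were called). The authors' deposited table called 6 higher and 1 lower in that comparison (20.7%). For H2023 the authors' deposited tables called 1 higher and 0 lower in normal culture (10.8%), and 0 higher and 1 lower in oncosphere culture (5.07%).

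Of 14 partners and antagonists of MYC, 13 had rows. In oncosphere culture limma called 4 higher and 2 lower in A549 wild type and 1 and 3 in A549 labelled knockout. It called 1 and 1 in H2023 wild type, and 3 and 2 in H2023 labelled knockout (5 and 1 after centring). Of all genes 40.6%, 20.8%, 21.4% and 26.9% were called before centring, in either direction. For labelled knockout in A549 normal culture it called 2 higher and 0 lower (10.8% of all genes). MXD4, which competes with MYC for its partner MAX, rose in oncosphere culture in A549 wild type from 5.06 and 6.27 TPM (normal) to 22.2 and 21.9 TPM (oncosphere), and in H2023 labelled knockout from 5.94 and 4.03 TPM (normal) to 13.1 and 11.8 TPM (oncosphere). In A549 normal culture it was also higher in labelled knockout, at 13.7 and 17.0 TPM (1.29 ± 0.19, limma adjusted p = 0.022), together with its relative MXI1 (1.22 ± 0.16, limma adjusted p = 0.0164). TFAP4, a MYC-induced transcription factor, was called lower by limma in oncosphere culture in all 4 comparisons, by 0.86 to 1.05 on the log2 scale. In H2023 wild type that call was made before centring, and after it limma called 3 of the 13 higher and 0 lower. Over all genes limma then called 1632 higher and 1263 lower.

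Among 18 other stem and progenitor markers, 15 had rows and 13 reached 1 TPM. In oncosphere culture limma called 5 higher and 1 lower in A549 wild type, 6 and 1 in A549 labelled knockout, 0 and 2 in H2023 wild type, and 3 and 2 in H2023 labelled knockout. After centring, the H2023 counts were 1 and 2 in wild type and 3 and 2 in labelled knockout. Before centring, 40.6%, 20.8%, 21.4% and 26.9% of all genes were called in these 4 comparisons, in either direction. LGR6, an R-spondin receptor, went from 0.58 and 1.60 TPM (normal) to 13.98 and 11.5 TPM (oncosphere) in A549 wild type and from 0.42 and 0.18 TPM (normal) to 25.2 and 20.5 TPM (oncosphere) in A549 labelled knockout. NT5E (CD73), a surface nucleotidase, rose in A549 wild type from 23.7 and 14.7 TPM (normal) to 77.4 and 69.2 TPM (oncosphere) and stood at 24.3 and 20.3 TPM in oncosphere labelled knockout. ALDH1A3, an aldehyde dehydrogenase behind the ALDEFLUOR stem cell assay, was called lower in oncosphere culture in all 4 comparisons, by 1.03 ± 0.28 to 1.70 ± 0.17. CD24, a surface sialoglycoprotein, differed in direction between the lines in oncosphere culture, at -0.93 in A549 and 1.12 in H2023 in the authors' deposited tables for labelled knockout against wild type. The z test on these gave a difference, H2023 minus A549, of 2.04 ± 0.21 (adjusted p = 1.63e-20).

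For each marker the 3 genes with the most similar pattern were found by Pearson correlation of log2(TPM + 1) over the 8 group means, among genes with a mean of at least 5 TPM. The 8 points share 2 lines, 2 cultures and 2 genotypes, so these are descriptions. CHIC1, HEXA and GPX3 were closest to CD44 (r from 0.966 to 0.976), STMP1, FLAD1 and COA6 to ABCG2 (0.916 to 0.948), and DNAJC14, SCAF11 and CCDC50 to BMI1 (0.986 to 0.997). NTS, SDF2L1 and ARF1 were closest to SOX2 (0.947 to 0.980), and ACSL5, GOLGB1 and HLA-E to SOX9 (0.964 to 0.973). RIPK2-DT, TRIM26 and ARL14 were closest to KLF4 (0.991 to 0.994), TGS1, CENPS and NUP188 to MYC (0.994 each), and RNF19B, HLCS and NFKBIL1 to POU5F1 (0.979 to 0.992). None of the 8 markers was among the 3 closest genes of another.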

How the data were processed

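The 16 libraries were prepared with a TruSeq stranded mRNA kit, per the labels' protocols, and whether counting used strand is not given in the sources used here. HISAT2, StringTie and GRCh38 are named in the submitters' processing notes. The 4 deposited tables, 1 per line and culture, hold TPM per library as made by the authors. They also hold the authors' mean normalized count (a signal over 4 libraries), log2 fold change and its standard error, test statistic (a score) and p-value, per the file headers. The signs of the authors' deposited statistic and fold change are opposite in all 18361 rows. The sign of the fold change was used, since it follows the TPM. Repeated rows (119 identifiers) were identical, which left 18227 genes. TPM is scaled within a library, so culture and line comparisons were made across tables.

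log2(TPM + 1) was tested with limma 3.58.1 (trend, R 4.3.3), with Benjamini-Hochberg adjustment over all genes and no filter on low values. Differences between cultures or lines were tested by a z test on the authors' deposited log2 fold changes and standard errors, with the limma interaction as an alternative. The limma fits were tested on simulated data. Of 100 genes changed by a log2 fold of 1, 74 and 79 were recovered for knockout in A549 normal and oncosphere culture. In H2023, 24 and 0 were recovered in the same order. At a log2 fold of 2, 91 and 62 of 100 were recovered in H2023, and 100 in each A549 culture. Tables were joined with pandas 2.3.3 in Python 3.11.15. Other alternatives were a pseudocount of 0.1, a filter at a mean of 1 TPM, a replicate block, spread shared over 8 or 16 libraries, centring on the median expressed gene, leaving out mitochondrial genes, and leaving out each library. The markers and the 9 companion lists were chosen with earlier results of these data known. All markers are named, and of each list up to 2 called genes at either end of the fold changes per comparison. SOX9-AS1, COMMD3-BMI1, TCF19 and PSORS1C3 are named for their overlap with a marker, and COMMD3 as the upstream neighbour of BMI1. PROM1 and NANOG, with no row, were not analysed here. Only 4 libraries enter a genotype comparison, which limits precision.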

Additional observations from a re-analysis of the deposited data

Results flagged for a closer look

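In 8 cases the labelled knockout effect on a marker differed between cultures or between lines, by a two-sided z test on the fold changes and standard errors in the authors' deposited tables with Benjamini-Hochberg adjustment over all genes. Each value is a difference of 2 log2 fold changes. Between cultures in A549, oncosphere minus normal, SOX9 differed by -1.76 and SOX2 by 1.98. Between lines in normal culture, H2023 minus A549, ABCG2 differed by -1.55 and KLF4 by 1.77. Between lines in oncosphere culture ABCG2 differed by -1.59, SOX9 by 2.20, KLF4 by 3.06 and SOX2 by -4.13. By the limma interaction 4 of the 8 also passed: SOX9 between A549 cultures, ABCG2 between lines in both cultures, and SOX9 between lines in oncosphere culture. The other 4, both of SOX2 and both of KLF4, did not pass there.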

How the results depend on the processing

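Counts of markers called, out of 8, moved with the filter, the estimate of the spread, the scaling and the test. For labelled knockout against wild type, the A549 normal count of 1 became 2 with the filter, 2 with the replicate block, 2 with spread shared over 8 libraries and 4 in the authors' deposited table. The share of all genes called moved too, from 10.8% to 19%, 11.6%, 15.4% and 22.1% in the same order. The A549 oncosphere count of 1 became 4 with the filter, 3 with the replicate block, 4 and 2 with spread shared over 8 and 16 libraries, 2 without mitochondrial genes and 5 in the authors' deposited table. There the share of all genes went from 13.2% to 18%, 15.2%, 19.5%, 20.7%, 13.1% and 20.7% in the same order. In the authors' deposited tables the H2023 normal count of 0 became 5 and the H2023 oncosphere count of 0 became 2. Those deposited H2023 tables called 10.8% and 5.07% of all genes with an adjusted p. For oncosphere culture in H2023 wild type, 3 became 1 after centring or without mitochondrial genes. Calls over all genes there went from 3901 to 2895 after centring and to 2285 without mitochondrial genes. Between lines, 4 in normal culture became 7 with spread over 16 libraries, and 1 in oncosphere culture became 2 with the filter, 4 with the replicate block, 4 with spread over 16 libraries, 2 after centring and 2 without mitochondrial genes. The 7716 calls over all genes between lines in oncosphere culture became 7686 after centring and 8000 without mitochondrial genes. By the limma interaction, with or without the block, the differences called fell from 2 to 1 between A549 cultures and from 4 to 2 between lines in oncosphere culture, and without the block from 2 to 1 between lines in normal culture. Without the block, calls over all genes fell from 1514 to 1212, from 2344 to 1795 and from 2783 to 2241 in that order. The cause was not tested. To check for pairing, the replicate 1 minus replicate 2 difference of each gene in wild type was correlated with that in labelled knockout. These correlations of differences over genes were 0.075, 0.131, 0.027 and 0.461 (A549 normal, A549 oncosphere, H2023 normal, H2023 oncosphere). As not every value was over 0.1 and the labels name no shared source, the numbers were not taken as pairs, although the H2023 oncosphere libraries did deviate together. With 1 library left out, the labelled knockout counts were 0 to 0 in all 4 comparisons. Oncosphere counts were 4 to 6, 2 to 4, 1 to 4 and 1 to 4, line counts 1 to 6 and 1 to 3, and counts of differences 0 to 1, 0 to 0, 0 to 2 and 1 to 2. Over all genes, 1971 calls for A549 normal labelled knockout became 0 with any 1 library left out and 3639 in the authors' deposited table. Single values that changed sign were BMI1 (-0.09 to 0.15) and POU5F1 (-0.20 to 0.029) for A549 normal labelled knockout in the authors' deposited table, KLF4 in H2023 labelled knockout oncospheres without mitochondrial genes (-0.18 to 0.034), and SOX2 between lines in normal culture by the limma interaction, with and without the block (-0.88 to 1.00). Leave-one-out ranges crossing 0 or opposite to the reported value, for oncosphere against normal culture, were ABCG2 -0.14 to 0.45 (A549 labelled knockout) and -0.063 to 0.34 (H2023 labelled knockout), KLF4 -0.093 to 0.88, -0.75 to 0.39 and -1.29 to 0.11 (A549 labelled knockout, H2023 labelled knockout, H2023 wild type), POU5F1 -0.099 to 0.43 (A549 labelled knockout) and SOX2 -0.035 to 0.036 (H2023 labelled knockout). For labelled knockout they were BMI1 -0.30 to 0.13 and POU5F1 -0.55 to 0.15 (A549 normal), MYC -0.13 to 0.093 and POU5F1 -0.12 to 0.38 (H2023 normal), and MYC -0.44 to 0.15 (H2023 oncosphere). Between lines in oncosphere culture they were KLF4 -0.42 to 0.98 and POU5F1 -0.35 to 0.062. For differences of effects, by the limma interaction, they were CD44 -0.007 to 0.22 (A549 cultures), BMI1 -0.68 to 0.15, KLF4 -0.29 to 1.11, MYC -0.42 to 0.17 and POU5F1 -0.006 to 0.66 (H2023 cultures), and POU5F1 -0.02 to 0.68, SOX2 0.43 to 1.56 and SOX9 -0.022 to 0.54 (lines, normal).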
